A study of Homo sapiens with 4 samples.

Results

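Siglecs are cell-surface lectins that bind sialic acid, the sugar that caps most glycan chains on mammalian cells. The 6 genes described here are the human sialic acid-binding Siglec genes SIGLEC1, CD33, SIGLEC5, SIGLEC7, SIGLEC9 and SIGLEC10, taken by gene name from a table of 24940 genes. They were selected on their read counts in these same 4 libraries, from results already known, so their levels and ratios are given as a description, without a test. All 6 are listed in the table, and 3 of them (SIGLEC1, CD33 and SIGLEC10) reached 1 CPM (counts scaled to a common library size) in at least 1 library, as did 13726 of the 24940 genes.

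The study asked how knockdown of c-Myc and of the anti-apoptotic protein Bcl-2, singly and together, changes the transcriptome of MOLM-13 cells, a line from human acute myeloid leukaemia with a KMT2A gene fusion. The cells were infected with lentiviruses that encode short hairpins and were selected in 0.5 µg/ml puromycin or in 600 µg/ml G418, and the labels give doxycycline induction for every library. The 4 groups were sh-Bcl2 (Bcl-2 knockdown), sh-c-Myc (c-Myc knockdown), sh-c-Myc_sh-Bcl2 (both hairpins, called the dual-hairpin library here) and shControl (negative control hairpin), with 1 sequencing library of total RNA each. The 72 h of doxycycline that the labels name belong to the Western blot, the time at which RNA was taken is not stated, and neither is whether the lines were clones or pools. With 1 library per group there is no replicate error: every interval below is a 95% counting interval and does not cover the spread between cultures.

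The counts per library summed to 15691129 in sh-Bcl2, 14421558 in sh-c-Myc, 15494138 in the dual-hairpin library and 14825763 in shControl. BCL2 stood at 38.7 CPM in sh-Bcl2, 111.5 in sh-c-Myc, 44.5 in the dual-hairpin library and 119.7 in shControl, and MYC at 364.3, 278.2, 301.6 and 433.7 CPM in the same libraries, so the MYC transcript was 0.641-fold of shControl in sh-c-Myc and 0.695-fold in the dual-hairpin library. All 9 markers of leukaemic myeloid cells on the list used here reached 1 CPM. Of 12 markers of monocytes and macrophages 4 reached it, and CD14 stood at 0.793 CPM in sh-Bcl2, 1.22 in sh-c-Myc, 0.960 in the dual-hairpin library and 0.781 in shControl.

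Most CD33-related Siglecs carry an immunoreceptor tyrosine-based inhibitory motif (ITIM) in their cytoplasmic tail, which Src family kinases phosphorylate and which then recruits the phosphatases SHP-1 and SHP-2 (genes PTPN6 and PTPN11). A smaller group, with SIGLEC14 and SIGLEC15, has no ITIM and pairs with the activating adaptor DAP12 (gene TYROBP). SIGLEC1 (sialoadhesin, CD169) stands apart as a long adhesion receptor of macrophages that lacks an ITIM and is known to be induced by interferon, and CD33 is the classical surface antigen of myeloid blasts and the target of gemtuzumab ozogamicin.

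In GENCODE 29, SIGLEC1 lies on chromosome 20 (3686970 to 3707128, minus strand, GRCh38). The other 5 lie in a cluster on chromosome 19: SIGLEC9 (51124908 to 51136651), SIGLEC7 (51142299 to 51153526) and CD33 (51225064 to 51243860) on the plus strand, and SIGLEC10 (51410021 to 51417803) and SIGLEC5 (51611927 to 51645545) on the minus strand. The 250 bases before the RefSeq transcription start (GRCh38.p14) were searched on both strands for 4 motifs: GAGGAA, a core of the kind bound by the myeloid factor PU.1; TTNNGCAA, of the C/EBP family; CACGTG, the E-box bound by MYC with MAX; and GAAA repeated after any 2 bases, the core of the interferon-stimulated response element. Among 35116 promoter windows of this length, 23.57%, 9.05%, 6.34% and 3.02% hold them in that order. The windows of CD33, which had the most reads, of SIGLEC9, and of the neighbours SIGLEC14 and SIGLEC5 are printed, for the matches they hold. They are given 5′ to 3′ in the direction of the gene, with the motif matches in capitals.
CD33, chr19:51224830-51225079, plus strand: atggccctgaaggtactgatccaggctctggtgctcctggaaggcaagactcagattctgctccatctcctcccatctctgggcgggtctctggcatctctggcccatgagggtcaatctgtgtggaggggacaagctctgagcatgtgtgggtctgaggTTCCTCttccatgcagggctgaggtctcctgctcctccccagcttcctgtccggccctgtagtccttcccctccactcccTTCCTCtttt
SIGLEC9, chr19:51124656-51124905, plus strand: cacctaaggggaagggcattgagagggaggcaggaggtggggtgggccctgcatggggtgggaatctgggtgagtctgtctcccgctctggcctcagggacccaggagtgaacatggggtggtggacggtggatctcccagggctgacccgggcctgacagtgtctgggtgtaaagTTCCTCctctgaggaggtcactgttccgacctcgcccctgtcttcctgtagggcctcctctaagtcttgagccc
SIGLEC14, chr19:51646826-51647075, minus strand: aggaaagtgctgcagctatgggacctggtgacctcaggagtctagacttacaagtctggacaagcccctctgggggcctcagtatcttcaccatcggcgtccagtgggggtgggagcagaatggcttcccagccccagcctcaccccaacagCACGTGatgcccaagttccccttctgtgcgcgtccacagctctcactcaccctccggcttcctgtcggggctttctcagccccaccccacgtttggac
SIGLEC5, chr19:51630402-51630651, minus strand: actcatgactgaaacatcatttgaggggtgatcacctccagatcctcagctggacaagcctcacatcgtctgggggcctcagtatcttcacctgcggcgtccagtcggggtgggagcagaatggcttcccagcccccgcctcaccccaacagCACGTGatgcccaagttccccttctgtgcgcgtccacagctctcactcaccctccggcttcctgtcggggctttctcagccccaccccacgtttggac
CD33 held the PU.1-type core on its other strand (TTCCTC) at 90 and at 10 bases before the start, and SIGLEC9 held it at 74 bases before the start printed and at 48 bases before another RefSeq start of the gene. SIGLEC7, whose window (51142209 to 51142458) is not printed, held GAGGAA at 135 bases before the RefSeq start. RefSeq starts differ from the GENCODE 29 starts given above. The windows of CD33, SIGLEC7 and SIGLEC10 (51417643 to 51417892) therefore reach into the genes as GENCODE 29 places them. The SIGLEC7 match and the CD33 match at 10 bases lie inside those genes. SIGLEC14 and SIGLEC5 each held a CACGTG at 98 bases before the RefSeq start. Their windows are identical at 195 of 250 positions and over an unbroken run of the last 113 bases. The SIGLEC5 window lies inside the gene as GENCODE 29 places it (51611927 to 51645545), not before the start annotated there. No other pair among CD33, SIGLEC5, SIGLEC7, SIGLEC9, SIGLEC10 and SIGLEC14 exceeded 30.4% identity. The window of SIGLEC10 held none of the 4 motifs. A match to these letters does not show that a factor binds there.

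SIGLEC1 was the member with the largest ratio between libraries among the 3 that reached 1 CPM. It had 2 reads in sh-Bcl2, 93 in sh-c-Myc, 114 in the dual-hairpin library and 1 in shControl, which is 0.132, 5.96, 7.29 and 0.0710 CPM in the same libraries. Both libraries with the c-Myc hairpin were thus high, and both without it held no more reads than the floor of 3 counts used here. The plain ratio of scaled counts of sh-c-Myc to shControl was 84.0 (14.7 to 3354), and that of the dual-hairpin library to shControl was 102.7 (18.1 to 4093). Log2 ratios, here and in all that follows, have a prior of 0.5 added to each count, while their intervals have no prior. With that prior the log2 ratio of SIGLEC1 was 5.82 in sh-c-Myc and 6.10 in the dual-hairpin library, and with a prior of 2 it was 4.84 and 5.12, so its size at 1 control read depends on the prior. The intervals of the plain ratios are wide because a single read stands in shControl. In a bulk library, fewer cells with the transcript and less of it per cell cannot be told apart.

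The dual-hairpin library differed little from sh-c-Myc in SIGLEC1. Its log2 ratio to sh-c-Myc was 0.29 (-0.12 to 0.70), an interval that includes 0, and its ratio to sh-Bcl2 was 55.2 (14.9 to 461.3). In sh-Bcl2 against shControl the ratio was 1.86 with an interval of 0.0969 to 109.8, so 2 reads against 1 gave no detectable difference at this depth. The log2 value of the dual-hairpin library lay 0.34 below the sum of both single knockdowns, within an interval of -3.29 to 2.60.

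CD33 was the most abundant member in every library. It had 641 reads in sh-Bcl2, 974 in sh-c-Myc, 816 in the dual-hairpin library and 644 in shControl, or 42.3, 62.5, 52.2 and 45.7 CPM. The sh-c-Myc library was 1.37-fold of shControl (1.24 to 1.51), a log2 ratio of 0.45 (0.31 to 0.60). Its level was thus highest with the c-Myc hairpin alone, lower with both hairpins and lowest without the c-Myc hairpin. The dual-hairpin library had a log2 ratio of 0.19 (0.04 to 0.34) to shControl, -0.26 (-0.40 to -0.12) to sh-c-Myc and 0.30 (0.15 to 0.45) to sh-Bcl2. In sh-Bcl2 against shControl it was -0.11 (-0.27 to 0.05). All 5 ratios of CD33 were under 2-fold, and the departure of the dual-hairpin library from the sum of the single knockdowns was -0.15 (-0.36 to 0.06).

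The CD33 ratio in sh-c-Myc depended on library scaling. With total counts in place of TMM factors the log2 ratio was 0.64, while the median over all 13726 genes was 0.17, against -0.02 with TMM. A change of scaling adds the same amount to the log2 ratio of every gene, so the CD33 ratio and that median necessarily shift together.

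SIGLEC10, an inhibitory receptor known from B cells and monocytes that binds CD24, was near the same level in every library. It had 47 reads in sh-Bcl2, 42 in sh-c-Myc, 34 in the dual-hairpin library and 36 in shControl, or 3.10, 2.69, 2.17 and 2.56 CPM. Against shControl, sh-Bcl2 had a log2 ratio of 0.28 (-0.38 to 0.95), sh-c-Myc one of 0.07 (-0.60 to 0.76) and the dual-hairpin library one of -0.23 (-0.95 to 0.48). All 3 intervals include 0 and stay within 2-fold.

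The inhibitory receptors SIGLEC9, SIGLEC7 and SIGLEC5, known from neutrophils, monocytes and natural killer cells, were under 1 CPM in all 4 libraries. SIGLEC9 had 1 read in sh-Bcl2, 8 in sh-c-Myc, 12 in the dual-hairpin library and 0 in shControl. Set against a floor of 3 counts in the shControl library it was at least 2.41-fold higher in sh-c-Myc and at least 3.61-fold higher in the dual-hairpin library, bounds that leave out the counting error of its own reads. The counting intervals of these ratios to shControl start at 1.54-fold and 2.50-fold, and SIGLEC9 was 11.6-fold of sh-Bcl2 (1.72 to 496.7) in the dual-hairpin library. The libraries with the most SIGLEC9 reads were thus the same pair that held the SIGLEC1 reads. SIGLEC7 had 3 reads in the dual-hairpin library and 0 in the other 3 libraries, which is at the floor. SIGLEC5 had 5 reads in sh-c-Myc and 0 in sh-Bcl2, in the dual-hairpin library and in shControl, and the counting interval of sh-c-Myc against shControl, from 0.828-fold, includes no difference.

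**Figure D1:**
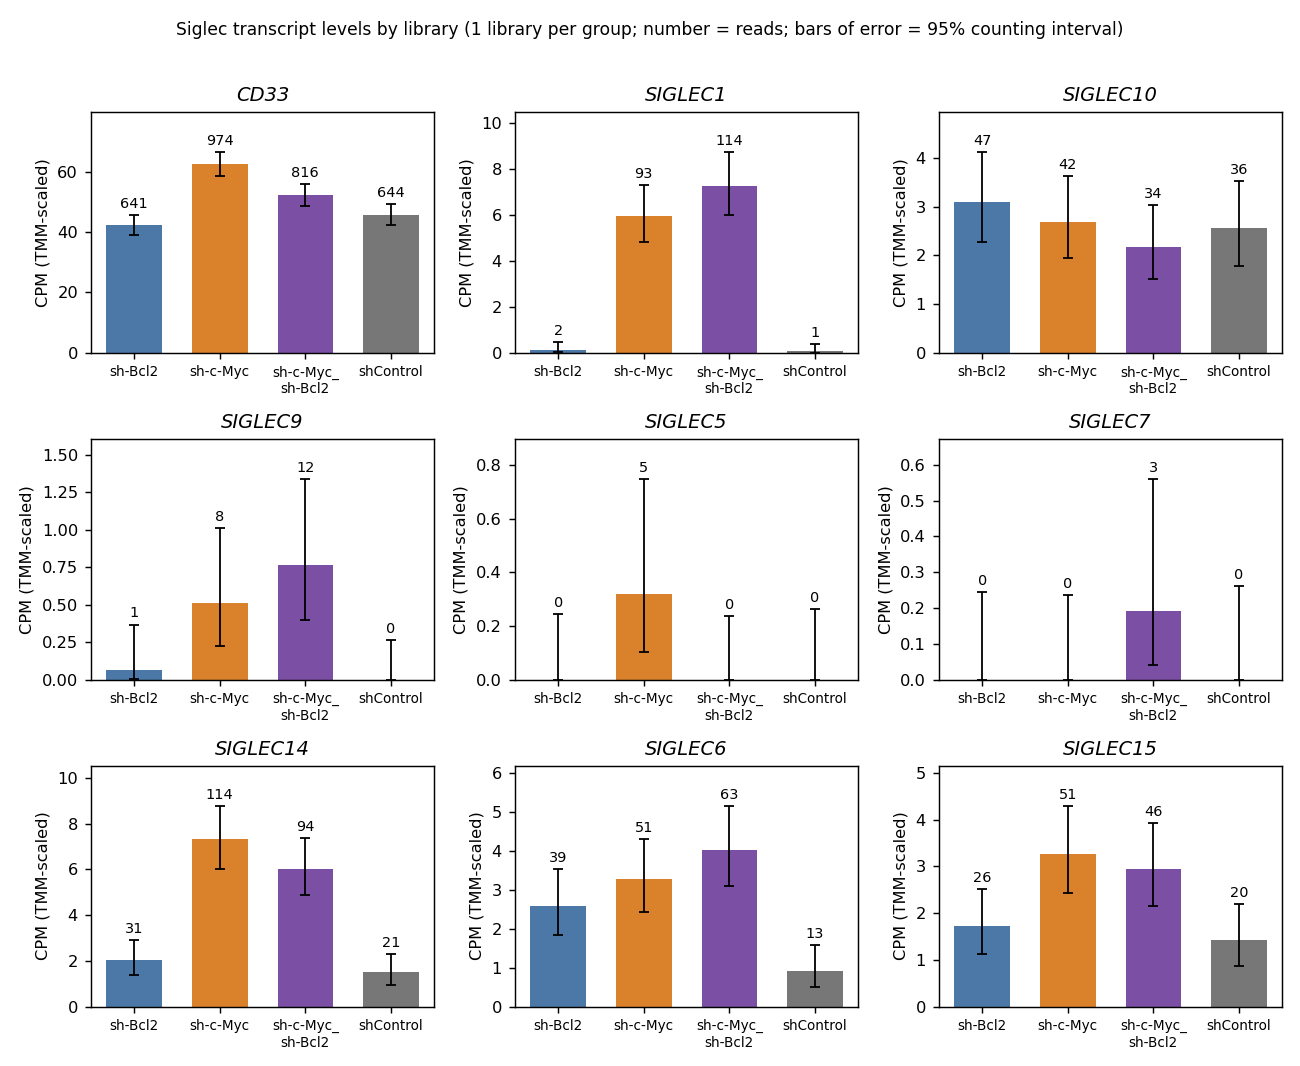
Level in TMM-scaled CPM (vertical axis, from 0, a separate scale per gene) of the 6 Siglec members and of SIGLEC14, SIGLEC6 and SIGLEC15 in each library (horizontal axis); the number above a bar is its read count and the error bars are 95% Poisson intervals. SIGLEC1 stands at 5.96 CPM in sh-c-Myc and 7.29 in the dual-hairpin library, against 0.132 in sh-Bcl2 and 0.0710 in shControl, while CD33 lies between 42.3 and 62.5 CPM in all 4 libraries.

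A gene counts as called, higher or lower, if it reached 1 CPM in a library, its ratio was at least 2-fold and its interval excluded a ratio of 1. In sh-c-Myc against shControl 1 of the 3 members that could be called, SIGLEC1, was higher and 0 were lower, where 12.7% of all 13726 genes were higher and 9.8% lower. In the dual-hairpin library against shControl it was again SIGLEC1, with 7.11% of all genes higher and 5.95% lower. In the dual-hairpin library against sh-Bcl2 it was SIGLEC1 once more, with 5.19% higher and 3.61% lower. No member was called in sh-Bcl2 against shControl, where 2.46% of all genes were higher and 2.16% lower, or in the dual-hairpin library against sh-c-Myc, where 1.65% were higher and 4.85% lower. No member departed from the sum of the single knockdowns by the same rule, where 3.02% of all genes lay above and 5.81% below it. The 3 comparisons with shControl share that library and the dual-hairpin library enters 3 of the 5, so the calls are not independent, and they rest on values that chose the members. SIGLEC1 reached 1 CPM only in the libraries with the c-Myc hairpin. Its place among the members that could be called thus rests on the same high values that are compared, and its calls are no test.

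The share called depends on how many reads a gene has. Among the 2994 genes with a mean of 15 to 100 counts, the range in which SIGLEC1, SIGLEC10, SIGLEC6, SIGLEC14 and SIGLEC15 fall, 26.5% were higher in sh-c-Myc and 15.8% in the dual-hairpin library against shControl. The sh-c-Myc library also had a count for 21426 genes, the dual-hairpin library for 20318, sh-Bcl2 for 19823 and shControl for 19450. The part of this difference in the Siglec ratios was not tested. Among the 3638 genes with a mean of 500 to 1500 counts, where CD33 falls, 3.27% were higher in sh-c-Myc.

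Levels were compared between members per length, on the deposited FPKM (fragments scaled to gene length and library size). CD33 was first in all 4 libraries, at 6.84 FPKM in sh-Bcl2, 11.3 in sh-c-Myc, 8.81 in the dual-hairpin library and 7.27 in shControl. In sh-Bcl2 and in shControl the second was SIGLEC10, at 0.817 and 0.662 FPKM. In sh-c-Myc the second was SIGLEC1, at 0.818 FPKM (0.660 to 1.00), followed by SIGLEC10 at 0.794 (0.572 to 1.07), and the interval of the ratio between these neighbours (1.03, 0.708 to 1.52) includes 1. In the dual-hairpin library SIGLEC1 had 0.933 FPKM (0.770 to 1.12) and SIGLEC10 had 0.598 (0.414 to 0.836); these intervals overlap, while that of the ratio between them (1.56, 1.05 to 2.36) excludes 1. SIGLEC9 came next in both, at 0.218 FPKM in sh-c-Myc and 0.305 in the dual-hairpin library. The length behind the CD33 values is 5975 bases, all annotated exons merged, where its longest protein-coding transcript has 1494 bases. With the longest protein-coding transcript as the length of each member, the order in each library was the same. TPM divides all FPKM values of a library by the same number, so it cannot change the order.

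Summed over the 6 members, the libraries held 691 reads in sh-Bcl2, 1122 in sh-c-Myc, 979 in the dual-hairpin library and 681 in shControl. CD33 made up 92.8% of them in sh-Bcl2 (exact Clopper-Pearson interval 90.6 to 94.6%), 86.8% in sh-c-Myc (84.7 to 88.7%), 83.4% in the dual-hairpin library (80.9 to 85.6%) and 94.6% in shControl (92.6 to 96.1%). Without CD33 the other 5 members had 50, 148, 163 and 37 reads in the same libraries. Among the 6 members the reads were thus mostly CD33 throughout, and most of the added reads outside CD33 were those of SIGLEC1. Over all 14 listed human Siglec genes CD33 made up 80.5% in sh-Bcl2, 71.6% in sh-c-Myc, 67.9% in the dual-hairpin library and 86.4% in shControl. In that wider set SIGLEC14 also added reads, with 114 in sh-c-Myc against 21 in shControl.

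Of 10 further human Siglec genes, 8 were listed and 3 reached 1 CPM, and all 3 of these were called higher in sh-c-Myc and in the dual-hairpin library against shControl. Over all 13726 genes 12.7% and 7.11% were higher in these comparisons. The shares were 26.5% and 15.8% among genes with a mean of 15 to 100 counts, where these 3 fall. SIGLEC14, the activating partner receptor of SIGLEC5, had 31 reads in sh-Bcl2, 114 in sh-c-Myc, 94 in the dual-hairpin library and 21 in shControl. It was 4.91-fold of shControl (3.06 to 8.23) in sh-c-Myc and 4.03-fold (2.49 to 6.82) in the dual-hairpin library, which was 2.94-fold of sh-Bcl2 (1.94 to 4.56). Like SIGLEC1, it was high in both libraries with the c-Myc hairpin, and its ratio of the dual-hairpin library to sh-c-Myc (log2 -0.28, -0.69 to 0.12) includes 0.

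SIGLEC6, an ITIM receptor known from placental trophoblast and mast cells, had 39 reads in sh-Bcl2, 51 in sh-c-Myc, 63 in the dual-hairpin library and 13 in shControl. It was the Siglec that was also called higher in sh-Bcl2, at 2.79-fold of shControl (1.46 to 5.70), beside 3.54-fold (1.90 to 7.10) in sh-c-Myc and 4.37-fold (2.38 to 8.65) in the dual-hairpin library. All 3 knockdown libraries were thus above shControl. In sh-Bcl2 against shControl 2.46% of all genes were higher, and 6.58% of those with a mean of 15 to 100 counts, where SIGLEC6 falls. The log2 value of the dual-hairpin library lay 1.15 below the sum of the single knockdowns (departure -1.15, -2.18 to -0.11), and shControl, with 13 reads, enters each term. By the rule used for the members SIGLEC6 was called below the sum, as were 5.81% of all genes.

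SIGLEC15, a DAP12-coupled Siglec of macrophages and osteoclasts on chromosome 18, had 26 reads in sh-Bcl2, 51 in sh-c-Myc, 46 in the dual-hairpin library and 20 in shControl. It was 2.30-fold of shControl (1.35 to 4.08) in sh-c-Myc and 2.07-fold (log2 1.03, 0.27 to 1.89) in the dual-hairpin library. SIGLEC11, SIGLEC12, SIGLEC16, SIGLECL1 and CD22, the B cell Siglec, stayed under 1 CPM, with at most 12 reads in a library. SIGLEC8 and MAG are not analysed here. SIGLEC6 and SIGLEC15 stayed under 5 CPM in every library, so a filter at that level ends their calls, while SIGLEC14 keeps them.

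**Figure D2:**
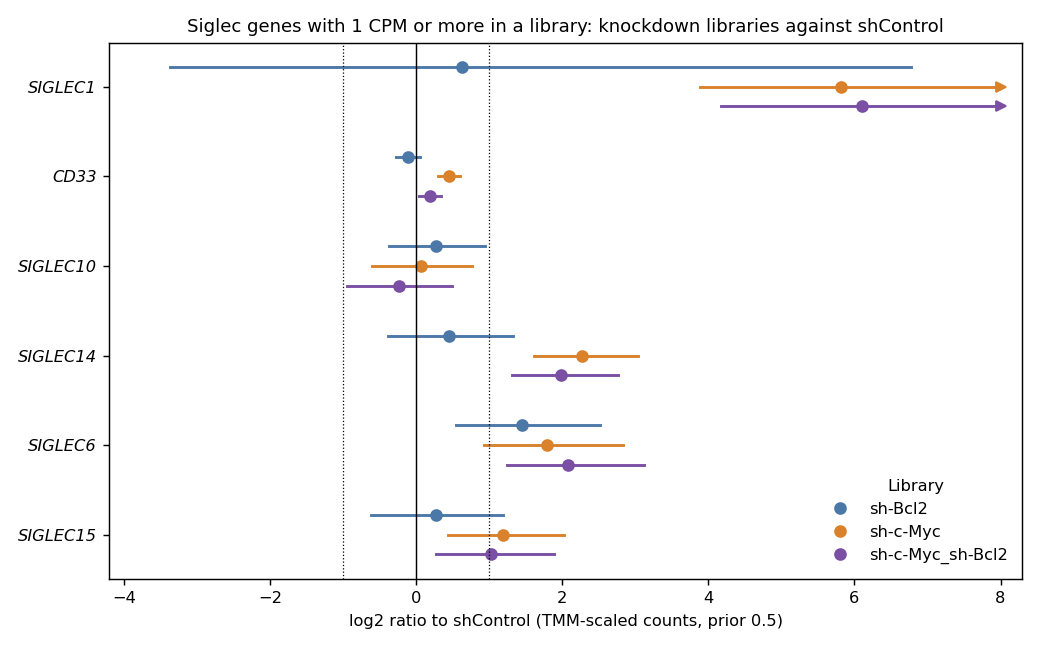
Log2 ratio of each knockdown library to shControl (horizontal axis; TMM-scaled counts with a prior of 0.5) for the 6 Siglec genes that reached 1 CPM; points are ratios, lines are 95% counting intervals, arrows mark intervals that run past the axis, and dotted lines mark 2-fold. SIGLEC1 lies at 5.82 in sh-c-Myc and 6.10 in the dual-hairpin library, SIGLEC14 at 2.27 and 1.99, and CD33 and SIGLEC10 lie within 2-fold in all 3.

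The counts of SIGLEC5 and its neighbours are limited by overlapping annotation. In GENCODE 29, 77.46% of the exonic bases of SIGLEC5 also belong to another gene, 1759 bases of them to AC018755.2 on the same strand and 69 to SIGLEC14, and 25.87% of its 100-base stretches occur in SIGLEC14. Of SIGLEC14, 29.05% of the 100-base stretches occur in SIGLEC5, so the split of reads between these genes is uncertain, and AC018755.2 is not analysed here. Antisense genes share 22.71% of the exonic bases of SIGLEC7, 22.63% of those of SIGLEC10 and 16.52% of those of SIGLEC6. The strand setting of the count step is not stated, so reads of these genes and of their antisense partners may not be separated. SIGLEC1, CD33 and SIGLEC9 share no exonic base with another gene.

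The Siglec cluster on chromosome 19 was then read from SIGLEC9 to SIGLEC14, a span of 521.9 kb (51124908 to 51646801) with 52 annotated genes, 16 of them Siglec genes or pseudogenes. Of these 52 genes 27 were listed and 10 reached 1 CPM, namely CD33, SIGLEC10, SIGLEC6 and SIGLEC14 and 6 other genes. Against shControl, 2 of the 4 Siglec genes and 1 of the 6 others were called higher in sh-c-Myc, 2 and 2 in the dual-hairpin library, and 1 and 1 in sh-Bcl2, and none was called lower. In the same order 12.7%, 7.11% and 2.46% of all genes were called higher. The shares were 26.5%, 15.8% and 6.58% among genes with a mean of 15 to 100 counts. The protein-coding genes between the Siglecs moved little. NKG7, a granule protein of cytotoxic cells, had log2 ratios to shControl of -0.01 for sh-Bcl2, -0.21 for sh-c-Myc and -0.36 for the dual-hairpin library. ETFB, a subunit of the mitochondrial electron transfer flavoprotein, had -0.19, 0.33 and 0.20, ZNF175 had 0.04, 0.31 and 0.13, and CLDND2 had 0.27, 0.05 and -0.46 in the same libraries.

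The other genes of the span that were called lie beside SIGLEC5 and SIGLEC14. AC018755.4, annotated within an intron of SIGLEC5, had 2 reads in sh-Bcl2, 17 in sh-c-Myc, 16 in the dual-hairpin library and 4 in shControl, with log2 ratios of 1.81 (0.32 to 3.97) in sh-c-Myc and 1.72 (0.22 to 3.89) in the dual-hairpin library. The pseudogene AC018755.3 had 29, 26, 31 and 13 reads in the same libraries, and was called higher in sh-Bcl2 (1.02, 0.06 to 2.12) and in the dual-hairpin library (1.07, 0.13 to 2.16). Among the 10 genes that reached 1 CPM, those called were thus SIGLEC6 and genes at or near SIGLEC14. Below 1 CPM, SIGLECL1, next to CD33, was 5.42-fold of shControl (1.21 to 49.9) in sh-c-Myc with 12 reads against 2, and SIGLEC9 lies at the far end of the span.

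**Figure D3:**
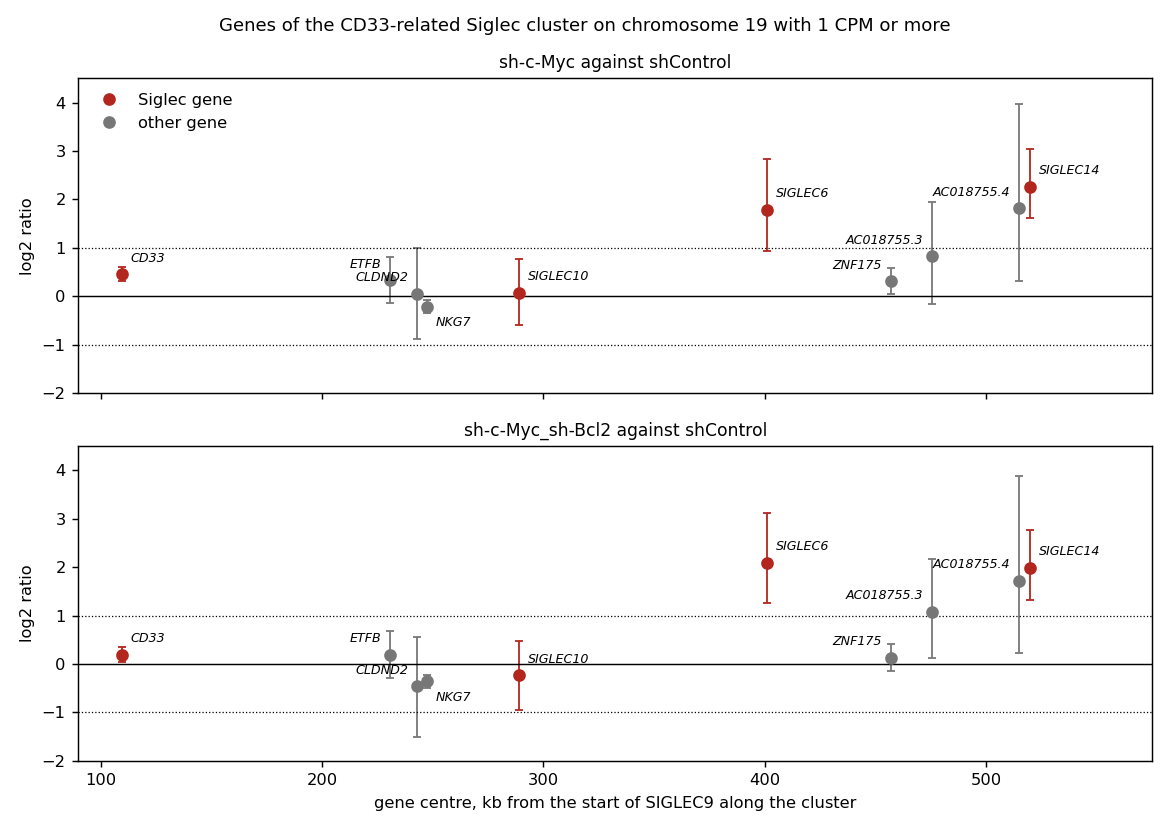
Log2 ratio to shControl (vertical axis) of the 10 genes of the chromosome 19 cluster that reached 1 CPM, by the distance of the gene's centre from the start of SIGLEC9 in kb (horizontal axis), in sh-c-Myc (upper panel) and in the dual-hairpin library (lower panel); red points are Siglec genes, grey points other genes, bars 95% counting intervals, and dotted lines 2-fold. SIGLEC6 and SIGLEC14 lie above 2-fold in both panels, and CD33, SIGLEC10, NKG7, ETFB, ZNF175 and CLDND2 lie within it.

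The genes whose ratios were nearest to those of each member were sought among 9511 genes with at least 10 CPM, by the Euclidean distance over the 3 log2 ratios to shControl. The nearest to SIGLEC1 were FGL2, CD209 and AC096667.1, at distances of 3.46, 3.66 and 3.81. These distances rest on SIGLEC1 ratios to a single control read, and SIGLEC1 itself stayed under 10 CPM. CD209 is DC-SIGN, another lectin of myeloid cells, and had log2 ratios of 1.94 for sh-Bcl2, 3.33 for sh-c-Myc and 3.77 for the dual-hairpin library. The nearest to CD33 were CAMTA2, RUNDC1 and RFNG, at 0.03, 0.05 and 0.05, and the nearest to SIGLEC10 were ANO5, GAREM1 and MIER2, at 0.08, 0.08 and 0.10. The measure uses 3 ratios that share 1 control library.

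The proteins that pass on Siglec signals were described next. Of 14 signalling genes that reached 1 CPM, TYROBP, FGR and SRC were called higher in sh-c-Myc and in the dual-hairpin library and 0 were lower. Over all genes 12.7% were higher in sh-c-Myc and 7.11% in the dual-hairpin library. The median log2 ratio in sh-c-Myc was 0.22, beside -0.02 over all genes. TYROBP, the DAP12 adaptor that SIGLEC14 and SIGLEC15 use, stood at 37.9 CPM in sh-Bcl2, 89.1 in sh-c-Myc, 75.9 in the dual-hairpin library and 27.8 in shControl. Its log2 ratios to shControl were 1.68 (1.52 to 1.84) in sh-c-Myc and 1.45 (1.28 to 1.62) in the dual-hairpin library, and 1.00 (0.86 to 1.15) in the dual-hairpin library against sh-Bcl2. TYROBP was thus called higher in the same 3 comparisons as SIGLEC14. The same calls were shared by SIGLEC1, MUC1, SIAE, PECAM1, KLF4, IRF7 and CEBPE, and SIGLEC15 was not called against sh-Bcl2. The Src family kinase genes FGR and SRC had log2 ratios of 1.17 and 1.47 in sh-c-Myc and of 1.14 and 1.16 in the dual-hairpin library. SRC had 53 reads in sh-c-Myc, 43 in the dual-hairpin library and 17 in shControl. The ITIM phosphatases did not reach 2-fold in any comparison: PTPN6 stood at 270.7 CPM in sh-Bcl2, 350.9 in sh-c-Myc, 359.4 in the dual-hairpin library and 308.9 in shControl, and PTPN11 at 375.4, 274.8, 291.3 and 375.3 CPM.

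Of 9 genes of sialic acid metabolism, mostly of its synthesis and activation but with NPL, the lyase that breaks it down, 3 were called lower in sh-c-Myc and 0 higher, with a median log2 ratio of -0.52 beside -0.02 over all genes. Over all genes 9.8% were lower and 12.7% higher in sh-c-Myc. GNPNAT1 and UAP1, which act on the way to UDP-N-acetylglucosamine, the precursor of sialic acid, had log2 ratios of -1.56 (-1.91 to -1.23) and -1.29 (-1.46 to -1.12). NANP, the phosphatase that releases free sialic acid, had -1.22 (-1.49 to -0.96). In the dual-hairpin library none of the 9 was called, where 7.11% of all genes were higher and 5.95% lower. The same 3 genes had -0.57, -0.88 and -0.55 there, each with an interval below 0. GNPNAT1 stood at 20.1 CPM in sh-Bcl2, 6.35 in sh-c-Myc, 12.7 in the dual-hairpin library and 18.8 in shControl, so its level with both hairpins lay between those with the c-Myc hairpin alone and with the control hairpin.

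Sialyltransferases, which attach sialic acid to glycans and so build Siglec ligands, went both ways. Of 10 that reached 1 CPM, ST3GAL3 was called higher (1.05, 0.45 to 1.69) and ST6GAL1 lower (-1.02, -1.18 to -0.87; -0.83 and not called with total counts) in sh-c-Myc, where 12.7% of all genes were higher and 9.8% lower. In the dual-hairpin library ST8SIA4, a polysialyltransferase, was higher (1.04, 0.93 to 1.15), at 145.5 CPM against 70.7 in shControl, and ST6GALNAC3 (-2.36, -4.21 to -1.06) and ST6GALNAC4 (-1.01, -1.51 to -0.54; -0.93 and not called with total counts) were lower. Over all genes 7.11% were higher and 5.95% lower in this comparison. ST6GALNAC3 rested on 5 reads in the dual-hairpin library against 25 in shControl. In sh-c-Myc ST8SIA4 had 131 CPM and a log2 ratio of 0.89 (0.78 to 1.00), just short of 2-fold, and ST6GALNAC4 had -0.96. ST3GAL3 and ST6GALNAC3 were called lower in the dual-hairpin library against sh-c-Myc, at -1.03 and -1.67, where 4.85% of all genes were lower. Of 5 genes that remove or modify sialic acid, SIAE, which removes acetyl groups from sialic acid, was called higher in sh-c-Myc (1.21) and in the dual-hairpin library (1.34). CTSA, the protective protein of the lysosomal sialidase NEU1, was higher in sh-c-Myc (1.27, 1.13 to 1.41) and had 0.99 in the dual-hairpin library.

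Of 8 genes for proteins described as Siglec ligands or as carriers of sialic acid, MUC1, a heavily sialylated mucin, was called higher both in sh-c-Myc (2.09, 1.75 to 2.45) and, at a like size, in the dual-hairpin library (2.12, 1.79 to 2.48). PTPRC, which encodes CD45, was higher in sh-c-Myc (1.06) and had 0.98 in the dual-hairpin library. LGALS3BP, a secreted glycoprotein, was higher in the dual-hairpin library against shControl (2.17, 1.19 to 3.45) and against sh-c-Myc (1.28, 0.51 to 2.15). It had 47 reads in the dual-hairpin library, 19 in sh-c-Myc and 9 in shControl. Against shControl 12.7% of all genes were higher in sh-c-Myc and 7.11% in the dual-hairpin library. The share was 1.65% in the dual-hairpin library against sh-c-Myc. SPN (CD43), the main sialylated mucin of leukocytes, stood at 436.4 CPM in sh-Bcl2, 677.8 in sh-c-Myc, 642.1 in the dual-hairpin library and 402.5 in shControl, under 2-fold throughout.

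Other inhibitory receptors of myeloid cells were set beside the Siglecs, most of them with an ITIM. SIGIRR, a receptor with a TIR domain, and CD200R1 are in the list without a classical ITIM, and the log2 ratio of SIGIRR in sh-c-Myc is the median of the list. Of 13 that reached 1 CPM, CLEC12A, PECAM1, PILRA and LILRB3 were called higher in sh-c-Myc and 0 lower, where 12.7% of all genes were higher and 9.8% lower, and the median log2 ratio was 0.90, beside -0.02 over all genes. CLEC12A, a lectin found on myeloid blasts, had 2.02 in sh-c-Myc and 1.84 in the dual-hairpin library, and PECAM1 had 1.75 and 1.81. PILRA, which itself binds sialylated glycans, had 1.77 (1.21 to 2.39) in sh-c-Myc and 0.90 (0.29 to 1.57) in the dual-hairpin library. LILRB3 had 2.66, with an interval of 0.87 to 6.10, from 17 reads in sh-c-Myc against 2 in shControl. FCGR2B, the inhibitory Fc receptor, was lower in the dual-hairpin library (-1.02, -1.59 to -0.48; -0.94 and not called with total counts), and reads of this gene may be shared with its close paralogs. CD33 and SIGLEC10, at 0.45 and 0.07 in sh-c-Myc, lay below the median of these 13 genes.

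Among 15 genes for transcription factors of myeloid receptor genes, CEBPD, CEBPE, KLF4 and IRF7 were called higher in both libraries with the c-Myc hairpin. In that order, their log2 ratios to shControl were 1.42, 1.73, 1.70 and 1.21 in sh-c-Myc. In the dual-hairpin library they were 1.07, 1.65, 1.53 and 1.03. Higher calls made up 12.7% of the whole set of 13726 in the first comparison and 7.11% in the second. Lower calls made up 9.8% in the first. CEBPE, with 16 to 60 reads per library, falls in the range of 15 to 100 mean counts. The shares with a higher call in that range were 26.5% and 15.8%. SPI1, which encodes PU.1, stood at 138.7 CPM in sh-Bcl2, 251.9 in sh-c-Myc, 196.8 in the dual-hairpin library and 173.2 in shControl, under 2-fold in each comparison with shControl. EGR1, an immediate early gene, was lower in sh-c-Myc (-3.80, -4.25 to -3.40), and both EGR1 (4.65) and EGR2 (1.05, or 0.95 and not called with total counts) were higher in the dual-hairpin library against sh-c-Myc. EGR2 had 44 reads against 21 in that comparison, where 1.65% of all genes were higher. In sh-Bcl2 against shControl, SIGLEC6 was the one gene called over all 8 lists, where 2.46% of all genes were higher and 2.16% lower.

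**Figure D4:**
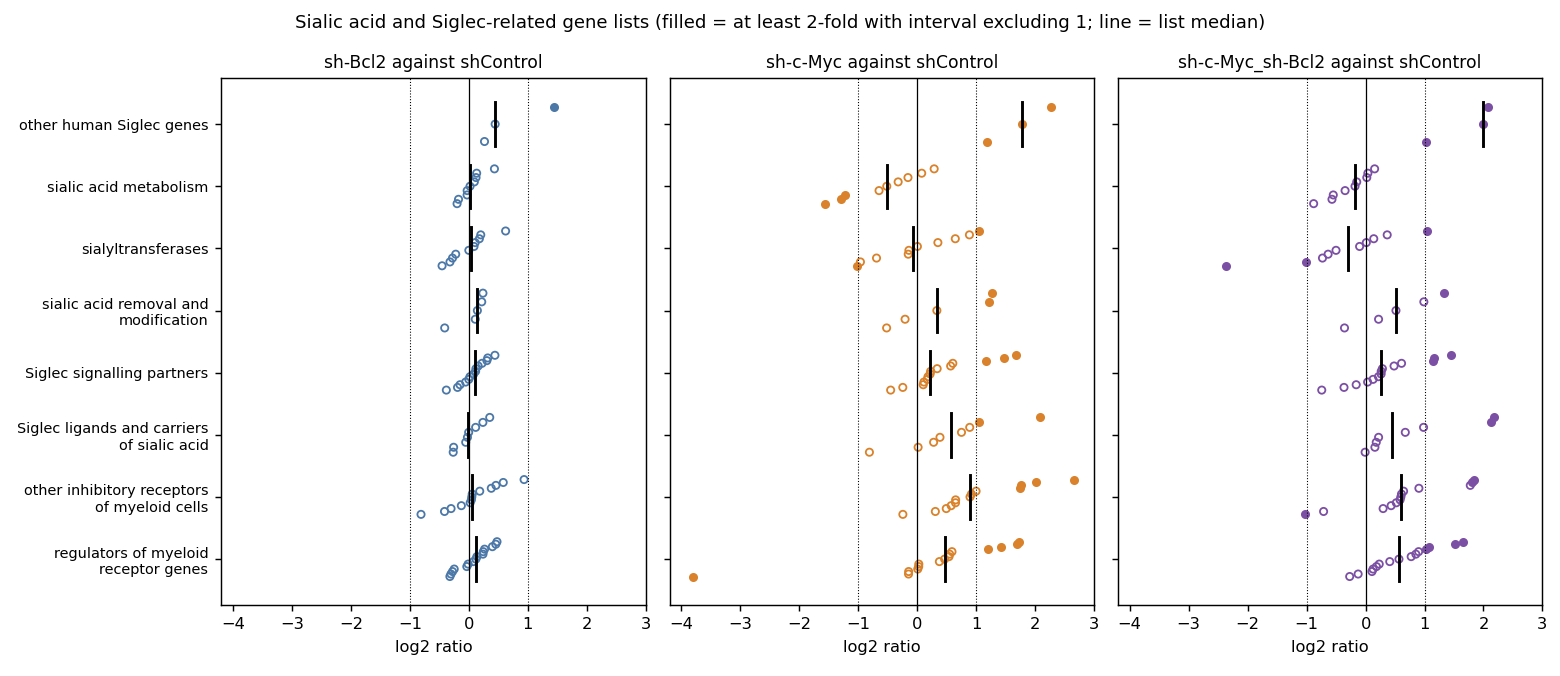
Log2 ratio to shControl (horizontal axis) of the genes of 8 lists (vertical axis) in sh-Bcl2, sh-c-Myc and the dual-hairpin library; each circle is a gene that reached 1 CPM, filled where it was called, vertical bars are list medians, and dotted lines mark 2-fold. The 3 further Siglec genes have medians of 1.79 in sh-c-Myc and 1.99 in the dual-hairpin library, and the list of sialic acid metabolism has a median of -0.52 in sh-c-Myc and -0.18 in the dual-hairpin library.

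Of the 4 monocyte and macrophage markers that reached 1 CPM, CSF1R was called higher in sh-c-Myc and in the dual-hairpin library, CD14 and CD163 were not called in any comparison with shControl, and MARCO was called lower in sh-Bcl2 (0.396 CPM against 1.70 in shControl). The summed level of the 12 monocyte and macrophage markers was 38.9 CPM in sh-Bcl2, 185.6 in sh-c-Myc, 159.9 in the dual-hairpin library and 23.1 in shControl. CSF1R, the receptor of macrophage colony-stimulating factor, made up most of it, at 35.7, 179.1, 151.8 and 18.95 CPM. MRC1, a defining macrophage gene, had at most 0.0641 CPM. Of the 9 leukaemic myeloid markers, sh-Bcl2 had 1 called higher, sh-c-Myc had 5 and the dual-hairpin library had 4, where 2.46%, 12.7% and 7.11% of all genes were higher in the same order. Those called were LYZ in all of these, MPO, CSF3R and ITGAM in both libraries with the c-Myc hairpin, and PTPRC in sh-c-Myc. FLT3, MEIS1, HOXA9 and SPI1 were not called in any comparison with shControl. The part of these marker differences in the Siglec ratios was not tested.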

How the data were processed

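RNA-seq libraries of 4 groups of MOLM-13 cells, 1 per group, were read from a table of counts and FPKM per gene. Per the submitters' processing notes, the authors aligned reads to GRCh38 with HISAT2 and made the deposited counts with HTSeq 0.13.5; no annotation release or strand setting is given. FPKM values, per the file headers, are also as deposited, and 99.68% of the gene lengths they imply equal the merged exons of GENCODE 29. Per the labels, 1.5 µg of Trizol-extracted RNA went into each NEBNext Ultra library.

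Counts were scaled with TMM factors of edgeR 4.0.16 (0.965 in sh-Bcl2, 1.08 in sh-c-Myc, 1.01 in the dual-hairpin library, 0.950 in shControl). Ratios are log2 values with a prior of 0.5 and an exact conditional binomial 95% interval, and levels have exact Poisson intervals. Intervals and floors cover counting error only, and reads are not independent molecules. A floor of 3 counts (0.198, 0.192, 0.192 and 0.213 CPM in the same order) stands for a count of 0 in bounds. Genes were called at 2-fold, with an interval that excludes 1 and 1 CPM in at least 1 library; this filter uses total counts, while the CPM levels given are TMM-scaled. The scripts were tested on simulated counts. A fit with 1 term per hairpin was not used here. Departures subtract both single-hairpin log2 ratios from that of the dual-hairpin library, and their intervals come from the delta method. Promoter windows are those of RefSeq (GRCh38.p14), which gave a window for 5 of the 6 members; none was used for SIGLEC1.

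The members, the 8 gene lists and the 10 marker lists were chosen with earlier results of these data known, so no list has a test. Named genes are the 6 members, list genes called in a comparison or else the 4 with the highest mean CPM, the genes of the chromosome 19 span with 1 CPM, and the 3 nearest genes to each member that reached 1 CPM. The span runs from SIGLEC9 to SIGLEC14, and SIGLEC11 lies outside it. Summed markers in sh-Bcl2, sh-c-Myc, the dual-hairpin library and shControl were 1579, 3151, 2924 and 1353 CPM for leukaemic myeloid cells, 225.9, 203.4, 242.0 and 248.1 for natural killer cells, of which NCAM1 made up at least 203.2 CPM, 2.51, 5.26, 3.71 and 3.41 for B cells, and at most 1.60 for erythroid, megakaryocyte, eosinophil and basophil, dendritic and fibroblast lists; the 5 T cell markers were not analysed here.

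Alternatives were total-count, DESeq2 1.42.0 median-of-ratios and upper-quartile scaling, other filters and thresholds, a prior of 2, FPKM with pseudocounts of 1 and 0.1, and TPM. Those for the lists, for the length of the longest coding transcript and for departures under upper-quartile scaling were added after seeing the data.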

Additional observations from a re-analysis of the deposited data

Results flagged for a closer look

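No Siglec member met a rule for a closer look. A pair of list genes had ratios to opposite sides of 0 for the same hairpin in different backgrounds, each with a counting interval that excludes 0; with 1 library per group the difference was not tested. FCGR2B, the inhibitory Fc receptor, had a log2 ratio of -1.60 in the dual-hairpin library against sh-c-Myc, where sh-Bcl2 against shControl gave 0.46. For the c-Myc hairpin it had -1.48 in the dual-hairpin library against sh-Bcl2, where sh-c-Myc against shControl gave 0.58. EGR1, an immediate early gene, had 0.37 in the dual-hairpin library against sh-Bcl2, where sh-c-Myc against shControl gave -3.80.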

How the results depend on the processing

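With 1 library per group there is no replicate to leave out. No paired analysis was possible because each group holds 1 library, all with the number 1. Depth limits SIGLEC5, SIGLEC7 and SIGLEC9, which had at most 12 reads in a library.

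Of 180 alternative values of the members' log2 ratios 168 stayed within their counting interval and 0 of the called ones changed sign. The others were SIGLEC1 ratios on deposited FPKM, where the pseudocount sets the size: with FPKM + 1 they were 0.85 in sh-c-Myc and 0.94 in the dual-hairpin library against shControl and 0.93 in the dual-hairpin library against sh-Bcl2, and with FPKM + 0.1 they were 3.08, 3.25 and 3.15. CD33 in sh-c-Myc against shControl had 0.64 with total counts, 0.63 with upper-quartile factors and 0.63 with FPKM + 0.1. The remaining 3 are SIGLEC9 ratios with FPKM + 1. Ratios of 0 reads to 0 reads, in SIGLEC5 and SIGLEC7, have no bounds and could not leave their interval. Further intervals of SIGLEC5, SIGLEC7 and SIGLEC9 are open on a side. The called ratios are those of SIGLEC1, at 93 or 114 reads against 1 or 2, whose sign these settings could not change. Without the filter on low counts 2 members in place of 1, SIGLEC1 and SIGLEC9, were called in sh-c-Myc and in the dual-hairpin library against shControl and in the dual-hairpin library against sh-Bcl2. All 18 alternative departures stayed within their intervals. The order per length was the same in 4 of 4 libraries with the length of the longest coding transcript, while TPM cannot change it.

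Counts over all genes moved with the thresholds by construction. In sh-Bcl2, sh-c-Myc and the dual-hairpin library against shControl, and in the dual-hairpin library against sh-c-Myc and against sh-Bcl2, 633, 3089, 1793, 893 and 1208 genes were called. In the same order these were 178, 1929, 1027, 241 and 595 at 5 CPM, 1393, 5539, 3863, 2075 and 2903 at 1.5-fold, 163, 1872, 996, 213 and 561 at a mean of at least 50 counts, and 100, 1342, 593, 157 and 298 with FPKM + 1. Of the called genes 56.5% were higher in sh-c-Myc against shControl with TMM and 71.0% with total counts. The lists had 1, 24, 19, 6 and 11 genes called. Of 25 alternatives 18 stayed within 1.5 times, and 1.5-fold gave 3, 37, 35, 12 and 30. A filter at 5 CPM ended the calls of SIGLEC6, SIGLEC15, ST6GALNAC3, SRC, LGALS3BP, LILRB3, CEBPE and EGR2.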
